A study of Mus musculus with 36 samples.

Results

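The contractile machinery of striated muscle is built from gene families whose members are used in the heart, in slow or in fast muscle fibers. This report covers 36 such genes, chosen by name for their textbook roles as sarcomere proteins, calcium pump proteins and muscle creatine kinase. The list and its classes were set with earlier results of these data known. Of the 36, the deposited table held rows for 35 among its 18760 uniquely named genes, and the expression of Tnnc2, the fast troponin C gene, is not analysed here. By their textbook use they were divided into 7 cardiac genes, 7 genes shared by heart and slow fibers, 3 slow skeletal genes, 13 fast and adult skeletal genes, and 5 genes used in several striated muscles.

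The samples were bulk RNA libraries of heart, skeletal muscle, tumor, kidney, lung and liver from C57BL/6 wild-type mice. All animals, controls included, carried MC38 tumors, grown from a mouse colon carcinoma line. Treated mice were given combined immune checkpoint blockade (ICB), a high dose of anti-PD-1 and anti-CTLA-4 antibodies that releases T cells from inhibition, and control mice were given IgG. Each tissue was represented by 3 ICB and 3 IgG libraries, 36 in all. The labels give the mice as matched for age and sex without an age, do not say which skeletal muscle or which chamber of the heart was taken, and do not state whether each library is from a different mouse. The p-values therefore reflect only how these libraries vary, which may be technical in part. In bulk tissue, fewer cells of a type and less RNA per cell cannot be told apart.

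In a sarcomere, myosin thick filaments pull on actin thin filaments. Calcium released into the cytosol binds troponin C, troponin I and troponin T relay the signal to tropomyosin, and the myosin heads gain access to actin. Calcium is then pumped back by SERCA, the calcium ATPase of the sarcoplasmic reticulum, which phospholamban restrains in the heart. Muscle fibers are typed by their myosin heavy chain, with Myh7 in slow type I fibers, Myh2 in type IIA, Myh1 in type IIX and Myh4 in the fastest type IIB. In the mouse, the ventricle uses Myh6 as its adult heavy chain and Myl2 as its regulatory light chain. The atria use Myl7 as regulatory and Myl4 as essential light chain.

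The libraries held 19005189 to 25512980 recovered reads. Reads of the 35 genes made up 9.21% to 10.6% of each heart library and 18.6% to 22.6% of each muscle library, 0.0973% to 0.293% in tumor and lung and 0.0208% to 0.0712% in kidney and liver. Values are FPKM, fragments scaled to gene length and library size, so that levels of different genes are compared per length. Defining markers of the labelled tissues were present in heart (Ryr2 at 135 to 201 FPKM), muscle (Ryr1 at 147 to 246 FPKM), kidney (Aqp2 at 313 to 672 FPKM), lung (Ager at 393 to 701 FPKM) and liver (Alb at 34886 FPKM or more). For tumor, 4 epithelial markers (Epcam, Krt8, Krt18 and Krt19) summed to at most 1.01 FPKM, so no defining marker of its label is shown. In heart, the atrial genes Sln and Mybphl were at most 0.126 FPKM, whereas Nppa, an atrial natriuretic peptide gene, stood at 51.7 to 110 FPKM. Several libraries stood apart. They were heart ICB replicate 3 and tumor ICB replicate 2 (described with their genes), lung IgG replicate 3, and muscle IgG replicate 2, which had the lowest median correlation with the other muscle libraries (0.966) and the regulator gene Myf6 at 14.4 FPKM (others 85.4 to 127).

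**Figure D1:**
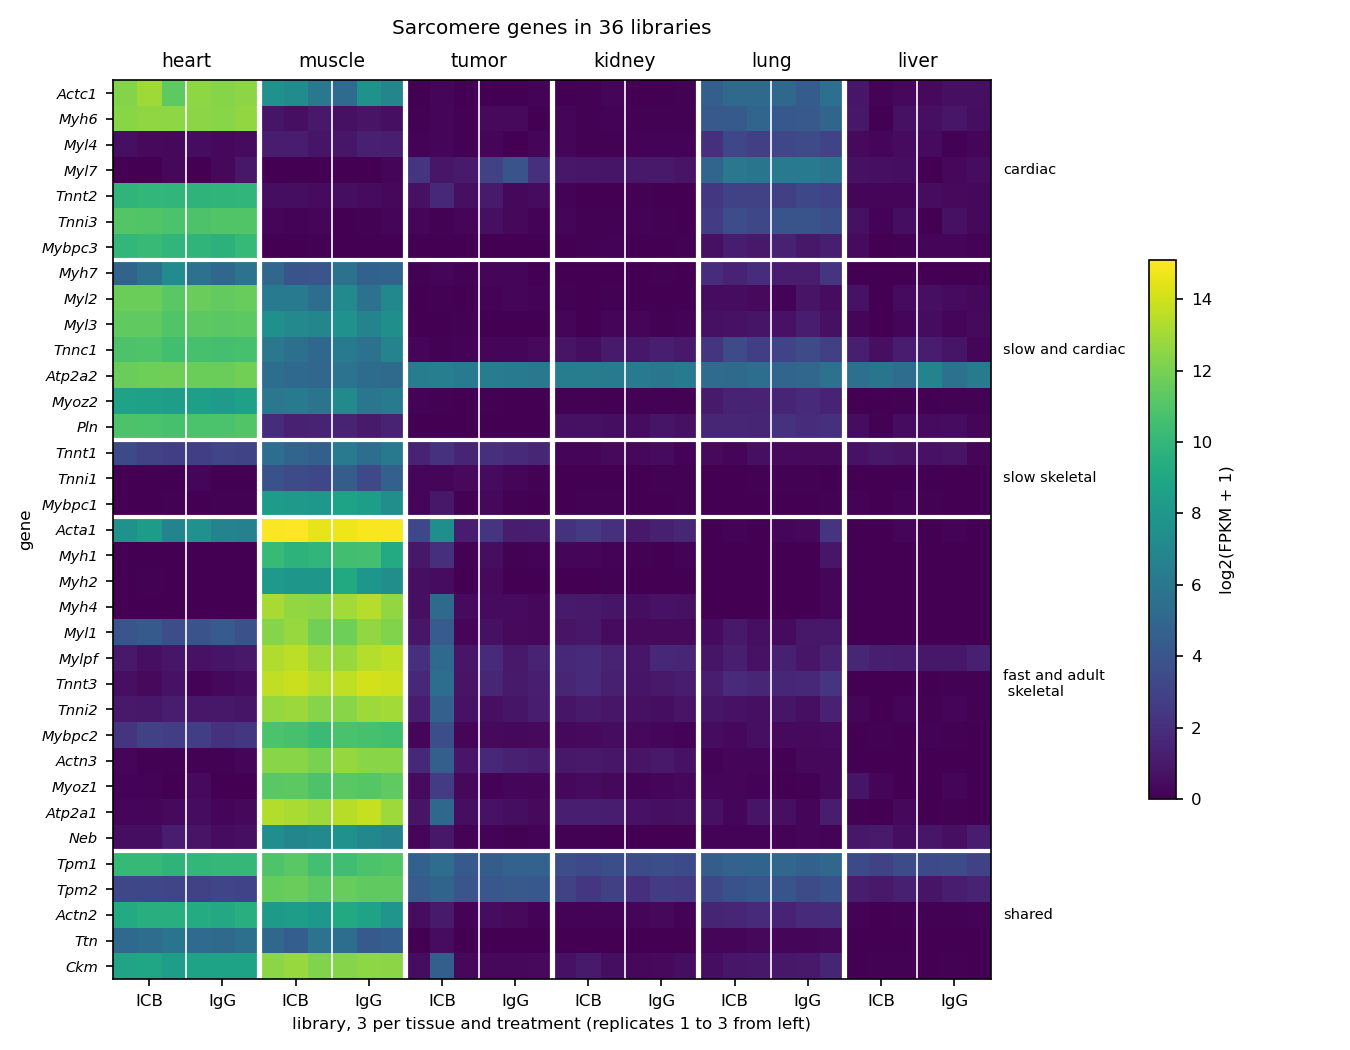
Each row is 1 gene, grouped by class, and each column 1 library, 3 ICB and then 3 IgG libraries for each tissue; color is log2(FPKM + 1). Cardiac genes are bright in heart except Myl4 and Myl7, fast genes are bright in muscle, tumor ICB replicate 2 shows a column of fast genes, and lung shows a cardiac block that includes Myl7.

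Heart and skeletal muscle were first compared to see which isoform each tissue used. Heart libraries expressed the ventricular set and muscle libraries the fast set, with differences between -13.33 and 11.74 on the log2 scale. Of the 35 genes, 34 differed between the 6 heart and the 6 muscle libraries, 14 higher and 20 lower in heart (limma on log2(FPKM + 1), adjusted p under 0.05 over all 16123 genes tested), where 25.3% of all genes tested were higher and 27.0% lower. The median difference of the 35 was -2.42 log2, beside -0.00 for all genes. The genes are on the list for their known tissue use, so this contrast is a description of that use in these libraries. FPKM folds below are on the log2(FPKM + 1) scale, which understates the change of low genes.

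Among myosin heavy chains, Myh6, the alpha chain of the adult mouse ventricle, ran from 5340.1 to 6346 FPKM in heart (median 5777) and from 0.505 to 1.03 FPKM in muscle (median 0.672), a log2 difference of 11.74 ± 0.14 (SE, n = 6 per tissue, as for all differences between tissues). These SEs come from a fit of all 36 libraries, so each also holds the spread within the other tissues. For fast genes this includes tumor ICB replicate 2, described below. Myh4, the IIB chain, lay at 0 to 0.0415 FPKM in heart and at 5672 to 11084 FPKM in muscle (-12.86 ± 0.43). Myh1 reached at most 0.00847 FPKM in heart and ran from 601 to 1520.2 FPKM in muscle (-10.03 ± 0.22). Myh2 reached at most 0.0437 FPKM in heart and ran from 172 to 570.4 FPKM in muscle (-8.08 ± 0.16). The muscle libraries thus had IIB above IIX above IIA heavy chain RNA in each of the 6. Myh7, the beta chain shared by the heart and slow fibers, ran from 26.8 to 156 FPKM in heart (median 49.3) and from 14.2 to 51.4 FPKM in muscle (median 26.1), and these ranges overlapped although the means differed (1.01 ± 0.27, adjusted p = 0.00201).

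The heavy chain genes sit in 2 clusters. Myh2 (67171027 to 67197517), Myh1 (67200052 to 67224575) and Myh4 (67238029 to 67260446) follow each other on the plus strand of chromosome 11, and Myh6 (54941921 to 54966927) lies beside Myh7 (54970684 to 54994626) on the minus strand of chromosome 14 (GRCm38, GENCODE M21). Their transcripts share sequence, which limits how well short reads separate them. Of the 50-base words in the longest coding transcript, 22.6% of those of Myh6 also occur in Myh7, 19.7% of those of Myh1 in Myh2, and 10.6% of those of Myh4 in Myh1. Outside the heavy chains, only Actn3 and Actn2 shared any such words, at most 0.0705%. Myh7 is also overlapped by the antisense RNA Mhrt, which was listed at 13.8 to 32.0 FPKM in heart and at 0 in muscle, and by Gm17428, listed at 25.8 to 87.9 FPKM in heart and at 0 in muscle. Myhas, antisense to Myh1, was listed at 0 in heart and at 6.33 to 17.9 FPKM in muscle. Reads of the 2 strands cannot be told apart unless strand was used in counting, and the sources used here do not give this. Other genes of the list are overlapped too, among them Pln by Cep85l, Tnnc1 by Nisch and Atp2a1 by Rabep2, each on the opposite strand. Tnni3 is overlapped by Dnaaf3 on the same strand. The part of such reads in low values of these genes was not tested.

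Troponin I and T genes lie in pairs, and in 2 of the 3 pairs the partners were used in different tissues. Tnnt1 (4504570 to 4516382) precedes Tnni3 (4518305 to 4524229) on chromosome 7, Tnni1 (135779434 to 135810989) precedes Tnnt2 (135836354 to 135852260) on chromosome 1, and Tnni2 (142441808 to 142444410) precedes Tnnt3 (142498836 to 142516009) on chromosome 7. Tnni3, the cardiac troponin I, ran from 1836 to 2125 FPKM in heart and from 0 to 0.1996 FPKM in muscle (10.80 ± 0.12), while its neighbour Tnnt1, the slow troponin T, ran from 6.02 to 9.29 FPKM in heart and from 22.9 to 69.6 FPKM in muscle (-2.42 ± 0.15). Tnnt2, the cardiac troponin T, ran from 891 to 1019.8 FPKM in heart and from 0.238 to 0.463 FPKM in muscle (9.43 ± 0.14), while its neighbour Tnni1, the slow troponin I, lay at 0 to 0.173 FPKM in heart and at 8.69 to 24.0 FPKM in muscle (-3.76 ± 0.13). The fast pair was high in the same tissue. Tnnt3 lay at 0.107 to 0.646 FPKM in heart and at 11010.3 to 17383 FPKM in muscle (-13.33 ± 0.40, the lowest difference of the 35), and Tnni2 at 0.807 to 1.26 FPKM in heart and at 5239 to 8107 FPKM in muscle (-11.70 ± 0.35). Tnnc1, the troponin C of heart and slow fibers, ran from 1464 to 1958 FPKM in heart and from 32.8 to 107 FPKM in muscle (4.85 ± 0.19).

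Light chains followed the ventricle and the fast fiber. Myl2, the regulatory chain of ventricle and slow fibers, ran from 2415 to 3389 FPKM in heart and from 42.0 to 151 FPKM in muscle (5.25 ± 0.18), and its essential partner Myl3 from 1999 to 2729 FPKM in heart and from 112 to 196 FPKM in muscle (4.01 ± 0.12). The fast chains Mylpf (0.529 to 1.09 FPKM in heart, 6922 to 12842 FPKM in muscle) and Myl1 (10.8 to 19.2 FPKM in heart, 3416 to 6971 FPKM in muscle) were lower in heart, with log2 differences of -12.38 ± 0.38 for Mylpf and -8.31 ± 0.37 for Myl1. The atrial chains were near 0 in heart. Myl7 was listed at 0 in 3 of the 6 heart libraries (0.251 to 0.930 FPKM in the rest), and it is the 1 gene that did not pass (0.23 ± 0.23, adjusted p = 0.466). Myl4 had 0.232 to 0.544 FPKM in heart and 0.807 to 1.54 FPKM in muscle (-0.69 ± 0.13), lower in heart although it is an atrial gene.

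Acta1, the skeletal actin, had the highest level of the list, 24047 to 34926 FPKM in muscle, and stood at 100.2 to 311 FPKM in heart (-7.57 ± 0.57). Actc1, the cardiac actin, stood at 2620.4 to 7783 FPKM in heart and at 38.1 to 210.1 FPKM in muscle (5.51 ± 0.29). Both tissues thus held RNA of both actins. In the same heart libraries Myh4 was at most 0.0415 FPKM, and the median of the 13 fast genes was 0.00292% to 0.00704% of their muscle mean.

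The Acta1, Actc1, Myh4 and Myl7 promoters are shown because these 4 genes carry the contrasts between heart, muscle, tumor and lung and because each holds a CArG box, the motif recognized by serum response factor. RefSeq promoters (GRCm38.p6, 250 bases before to 50 after the gene start, on the gene's strand, 5′ to 3′) were given for 30 of the 36 genes, not for Tnni2, Tnnt3, Actn3, Neb, Myoz1 and Atp2a2. They lie at chr8:123894726-123895025 (Acta1, minus strand), chr2:114052826-114053125 (Actc1, minus), chr11:67237562-67237861 (Myh4, plus) and chr11:5898733-5899032 (Myl7, minus). Capitals mark the CArG box, whose bases lie 73 to 64 before the start in Acta1, 47 to 38 in Actc1, 104 to 95 in Myh4 and 61 to 52 in Myl7.
Acta1: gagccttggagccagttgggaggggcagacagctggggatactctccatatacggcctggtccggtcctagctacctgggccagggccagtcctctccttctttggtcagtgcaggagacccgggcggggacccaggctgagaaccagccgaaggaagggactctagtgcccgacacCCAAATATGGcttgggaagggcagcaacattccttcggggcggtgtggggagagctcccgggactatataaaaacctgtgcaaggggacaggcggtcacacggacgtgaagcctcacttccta
Actc1: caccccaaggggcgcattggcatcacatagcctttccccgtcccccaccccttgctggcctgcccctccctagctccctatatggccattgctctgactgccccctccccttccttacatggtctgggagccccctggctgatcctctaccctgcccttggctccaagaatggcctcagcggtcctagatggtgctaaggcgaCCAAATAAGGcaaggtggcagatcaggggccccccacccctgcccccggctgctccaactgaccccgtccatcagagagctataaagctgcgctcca
Myh4: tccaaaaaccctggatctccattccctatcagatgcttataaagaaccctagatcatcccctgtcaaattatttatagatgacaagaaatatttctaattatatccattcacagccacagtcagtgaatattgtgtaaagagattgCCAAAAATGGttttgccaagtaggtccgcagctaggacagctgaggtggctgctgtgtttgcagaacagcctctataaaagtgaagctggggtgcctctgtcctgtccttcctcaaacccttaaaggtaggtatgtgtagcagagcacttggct
Myl7: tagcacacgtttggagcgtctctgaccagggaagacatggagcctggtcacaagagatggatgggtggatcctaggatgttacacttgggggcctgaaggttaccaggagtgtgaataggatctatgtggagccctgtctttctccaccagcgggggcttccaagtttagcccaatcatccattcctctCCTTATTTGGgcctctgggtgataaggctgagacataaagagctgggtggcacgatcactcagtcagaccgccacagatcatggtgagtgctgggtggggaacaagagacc
The CArG box was found on either strand in 5 of the 30 promoters (these 4 and Myl3), against 1.81% of the promoters of 27025 genes. All motifs were searched on both strands. The MEF2 site, named for the myocyte enhancer factor, was found in 5 of 30 (Mybpc3, Myh1, Myh4, Myoz2 and Ttn), against 3.70%, the letters TATAAA in 10 of 30, against 15.7%, and the E-box CANNTG in 27 of 30, against 74.99%. A MEF2 site can contain TATAAA, so these matches can overlap. The 4 promoters printed each hold the same kind of box, while the genes were high in different tissues, Acta1 and Myh4 in muscle, Actc1 in heart and Myl7 in lung. A match is a description of letters and not of a bound site.

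The remaining genes followed their class. Among cardiac and shared slow genes, the cardiac myosin-binding protein Mybpc3 (827 to 1146 FPKM in heart, at most 0.0421 FPKM in muscle) and phospholamban, Pln (1648 to 2033 FPKM in heart, 1.10 to 3.01 FPKM in muscle), were higher in heart by 9.94 ± 0.09 and 9.35 ± 0.10 log2. The SERCA genes divided the same way. Atp2a2 stood at 3198 to 3761 FPKM in heart and 31.1 to 53.7 FPKM in muscle (6.44 ± 0.15), and Atp2a1 at 0.162 to 0.39 FPKM in heart and 7616 to 13784 FPKM in muscle (-12.93 ± 0.41). Myoz2, a Z-disc protein of heart and slow fibers, was higher in heart by 2.33 ± 0.13, with 312 to 414 FPKM in heart and 54.3 to 149 FPKM in muscle.

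The other skeletal genes were lower in heart. The fast Z-disc genes Actn3 (0.0558 to 0.207 FPKM in heart, 4232 to 6764 FPKM in muscle; -12.27 ± 0.31) and Myoz1 (0 to 0.306 FPKM in heart, 1878 to 2669 FPKM in muscle; -11.06 ± 0.23) were at most 0.306 FPKM in heart. Myosin-binding proteins C of slow and fast fibers, Mybpc1 (at most 0.0849 FPKM in heart, 172 to 438 FPKM in muscle; -8.13 ± 0.14) and Mybpc2 (3.58 to 6.95 FPKM in heart, 1227 to 1789 FPKM in muscle; -8.06 ± 0.32), were both muscle genes here. Neb, the ruler protein of the skeletal thin filament, had 0.442 to 1.23 FPKM in heart and 96.3 to 199 FPKM in muscle (-6.44 ± 0.15).

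Of the 5 shared genes, Tpm2 and Ckm were the furthest apart between the tissues. The Z-disc actinin Actn2 stood at 559.8 to 737 FPKM in heart and 232 to 568 FPKM in muscle (0.94 ± 0.15). Titin, Ttn, at 34.3 to 58.3 FPKM in heart and 18.3 to 52.4 FPKM in muscle (0.50 ± 0.16, adjusted p = 0.0108), lost the call with a pseudocount of 0.1 (adjusted p = 0.0989), with limma-voom on the recovered reads (adjusted p = 0.22) and without muscle ICB replicate 2 (adjusted p = 0.0593). Tropomyosin Tpm1 had 895 to 1125 FPKM in heart and 1432 to 2359 FPKM in muscle (-0.83 ± 0.15), and Tpm2 6.95 to 8.64 FPKM in heart and 2460.2 to 3148 FPKM in muscle (-8.34 ± 0.14). Ckm, the muscle creatine kinase that buffers ATP, had 331 to 482 FPKM in heart and 4752 to 6931 FPKM in muscle (-3.74 ± 0.39).

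A wider list of 80 genes of the same structures (M band, Z disc, calcium release, energy supply and transcription factors) had 78 genes tested, of which 27 were higher and 44 lower in heart, with a median of -0.66 log2 beside -0.00 for all genes. The 6 with the smallest p were the cardiac calcium release channel Ryr2 (7.24 ± 0.08), the cardiac myosin light chain kinase Mylk3 (7.34 ± 0.09), the transcription factor genes Nkx2-5 (6.20 ± 0.09), Gata4 (5.36 ± 0.08) and Tbx15 (-5.78 ± 0.08), and the skeletal release channel Ryr1 (-7.56 ± 0.13).

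In heart, ICB and IgG were compared to see whether the sarcomere set shifted with treatment, as fetal and skeletal isoforms can return in a stressed ventricle. No sarcomere gene passed in heart. Of 21 genes above the expression filter (1 FPKM or more in 3 or more of the 6 libraries), 13 were higher and 8 lower with ICB, with a median of 0.01 log2 beside 0.00 for all genes. limma called 0 of the 21 and 0.0% of 11476 genes, with 0 of the 21 and 521 of all genes at an unadjusted p under 0.05, and 0 of the 21 were called by limma-voom run on recovered reads. All but Acta1 and Myh7 differed by less than 0.3 log2, 19 of the 21.

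Acta1 had 210, 311 and 113 FPKM in ICB hearts (211 ± 98.7, mean ± SD, n = 3) and 195, 107 and 100.2 FPKM in IgG hearts (134 ± 53.0). ICB replicate 3 lay below IgG replicate 1, so the groups overlapped, and the difference of 0.60 ± 0.38 log2 (SE, n = 3 per group, as for all ICB differences) did not pass (adjusted p = 0.997). Without ICB replicate 2 it was 0.27, and without ICB replicate 3 it was 0.99. Actc1 had 5093, 7783 and 2620.4 FPKM in ICB hearts and 5789, 5272 and 5610.3 FPKM in IgG hearts, with the highest and the lowest value both under ICB (-0.24 ± 0.36, and 0.18 without ICB replicate 3). As a share of both actins, Acta1 made up 3.95%, 3.84% and 4.14% in ICB hearts (3.98% ± 0.153) and 3.26%, 1.99% and 1.75% in IgG hearts (2.33% ± 0.811). This share was higher in each ICB heart than in any IgG heart, and the exact permutation test, two-sided, gave p = 0.1, the smallest that 3 against 3 allow (adjusted p = 0.733 over 11 shares).

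Myh7 had 26.8, 49.9 and 156 FPKM in ICB hearts and 48.6, 32.0 and 52.8 FPKM in IgG hearts (0.45 ± 0.55, adjusted p = 0.997). A single library, ICB replicate 3, set the mean, and without it the difference turned to -0.24. As a share of Myh6 and Myh7, Myh7 made up 0.499%, 0.811% and 2.56% in ICB hearts and 0.859%, 0.596% and 0.825% in IgG hearts (exact permutation p = 0.9, adjusted p = 1). Myh6 itself had 5342, 6102 and 5944 FPKM in ICB hearts and 5611, 5340.1 and 6346 FPKM in IgG hearts. ICB replicate 3 also had the lowest Actc1, Myl2 (2415 FPKM, others 2829 to 3389) and Myl3 (1999 FPKM, others 2432 to 2729) of the 6, the highest Mhrt (32.0 FPKM, others 13.8 to 27.5) and a hepatocyte gene, Alb, at 53.6 FPKM (others 1.46 to 24.5). It was also lowest for Tnnc1, Tnni3, Pln, Tpm1 and Ckm. Gm17428 (87.9 FPKM, others 25.8 to 74.4) was highest there, as were Ttn (58.3 FPKM, others 34.3 to 46.1) and Neb (1.23 FPKM, others 0.442 to 0.746). Ttn and Neb have the longest transcripts of the list. The part of these in the Myh7 value was not tested.

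The other heart shares were close to 0. Tnni1 made up 0.00157%, 0.000851% and 0% of both troponin I genes in ICB hearts and 0.00902%, 0.00205% and 0.00148% in IgG hearts (exact permutation p = 0.2). The atrial chains Myl4 and Myl7 made up 0.016%, 0.00864% and 0.0209% of Myl2, Myl4 and Myl7 together in ICB hearts and 0.0136%, 0.0175% and 0.0419% in IgG hearts (exact permutation p = 0.5). Myl4 is an essential chain, as is Myl3, which is not in this sum, so the value is not a share within 1 kind of chain. Tpm2 was the 1 of the 21 whose groups did not overlap, with 8.29, 8.64 and 7.8214 FPKM in ICB hearts and 6.95, 7.8212 and 7.06 FPKM in IgG hearts, a gap of less than 0.001 FPKM. In heart, 4.79% of all genes tested were higher without overlap. The 5 red blood cell markers also did not overlap, with sums of 414 to 549 FPKM in ICB hearts and 749 to 3884 FPKM in IgG hearts, and the part of blood in these values was not tested. Of the wider list, 62 genes were tested and 0 passed, and Csrp3, a Z-disc sensor protein (0.26 ± 0.10), and Klhl40, a thin filament chaperone (-0.20 ± 0.08), had an unadjusted p under 0.05.

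**Figure D2:**
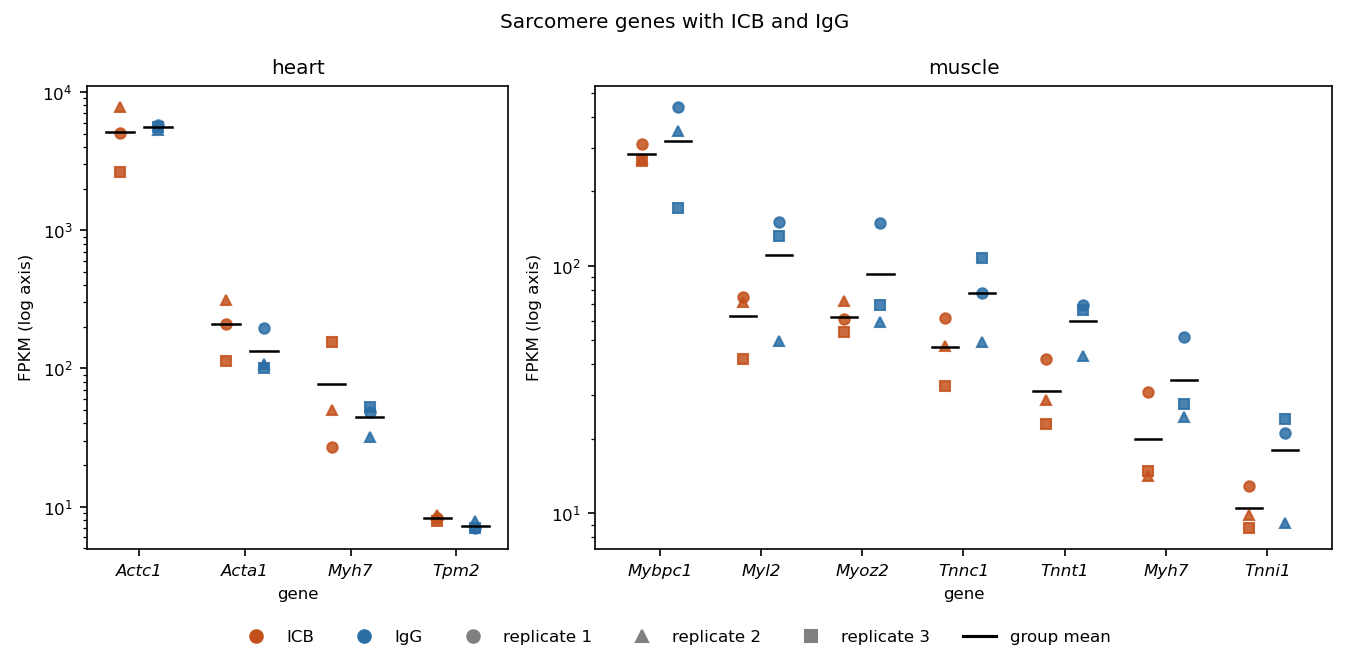
FPKM on a log axis in each library of heart (left) and muscle (right), with ICB left of IgG, a symbol for each replicate and a bar at the group mean. In heart, ICB replicate 3 (square) is apart for Actc1 and Myh7; in muscle, the ICB libraries lie below the IgG libraries for Tnnt1 and overlap for the other slow genes.

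In muscle, no sarcomere gene passed the test. Of the 10 genes shared with or specific to slow fibers, 9 had lower values with ICB, where 5640 of all 11410 genes tested were lower. The 10 genes were measured in the same libraries, so they do not count as separate evidence. Of 30 genes above the filter, 7 were higher and 23 lower (median -0.12 log2, beside 0.00 for all genes). limma called 0 of the 30 and 0.0% of 11410 genes, with 1 of the 30 and 608 of all genes at an unadjusted p under 0.05, and limma-voom called 0. The 7 shared slow and cardiac genes had a median of -0.45 and the 3 slow skeletal genes a median of -0.65, beside -0.13 for the 13 fast genes, of which 11 were lower. Pln was the 1 of the 10 with higher values, 3.01, 1.60 and 1.74 FPKM in ICB muscle and 1.78, 1.10 and 1.84 FPKM in IgG muscle (0.26 ± 0.22). Among the lower genes, Myl3 (-0.12 ± 0.27), Atp2a2 (-0.25 ± 0.21) and Mybpc1 (-0.08) were within 0.3 log2.

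Tnnt1, the slow troponin T, had 42.2, 28.8 and 22.9 FPKM in ICB muscle (31.3 ± 9.90, SD, n = 3) and 69.6, 43.2 and 66.6 FPKM in IgG muscle (59.8 ± 14.4). Each ICB value was below each IgG value, and the difference of -0.93 ± 0.27 log2 had an unadjusted p = 0.0103 and an adjusted p = 0.876. When the spread was estimated in 1 fit of all 36 libraries, Tnnt1 was called (adjusted p = 0.0258). Over the other alternatives its adjusted p ran from 0.466 to 0.9998.

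The other slow genes overlapped between the groups. Tnni1, the slow troponin I, had 12.8, 9.87 and 8.69 FPKM in ICB muscle and 21.1, 9.17 and 24.0 FPKM in IgG muscle (-0.65 ± 0.34). Myh7 had 30.8, 14.2 and 14.8 FPKM in ICB muscle and 51.4, 24.6 and 27.7 FPKM in IgG muscle (-0.78 ± 0.37). Tnnc1 had 61.4, 47.3 and 32.8 FPKM in ICB muscle and 77.6, 49.3 and 107 FPKM in IgG muscle (-0.69 ± 0.33). In each of these 3 genes, IgG replicate 2 lay within the range of the ICB libraries and IgG replicate 1 above it. Myl2 had 74.9, 71.5 and 42.0 FPKM in ICB muscle and 151, 49.9 and 132 FPKM in IgG muscle (-0.71 ± 0.43). Myoz2 had 61.0, 71.9 and 54.3 FPKM in ICB muscle and 149, 59.1 and 69.4 FPKM in IgG muscle (-0.45 ± 0.34), with 1 high library, IgG replicate 1. Each of these 5 had an adjusted p = 0.876.

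Mybpc1, listed as a slow gene, had 310.4, 269.8 and 266 FPKM in ICB muscle and 438, 351 and 172 FPKM in IgG muscle (-0.08 ± 0.33). Its lowest library, IgG replicate 3, had the highest Tnni1 and the second highest Tnnt1 of the 6. That library also had the lowest Myh1 and Myh2. Myh1 stood at 1186, 849.5 and 983 FPKM in ICB muscle and 1482, 1520.2 and 601 FPKM in IgG muscle, and Myh2 at 286, 251 and 248 FPKM in ICB muscle and 570.4, 241 and 172 FPKM in IgG muscle.

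Shares of isoforms within a gene pair did not separate the groups. Myh4 made up 85.7%, 85.03% and 82.0% of the 4 adult heavy chains in ICB muscle and 79.6%, 86.1% and 88.8% in IgG muscle (exact permutation p = 0.8, adjusted p = 1). Myh1 made up 11.3%, 11.4% and 14.2% in ICB muscle and 14.3%, 11.8% and 8.43% in IgG muscle (exact permutation p = 1). Myh7 made up 0.293%, 0.19% and 0.214% in ICB muscle and 0.497%, 0.191% and 0.389% in IgG muscle (exact permutation p = 0.3, adjusted p = 0.825). The IIB chain was the main heavy chain in each muscle library, and slow myosin was under 0.5% of heavy chain RNA in each.

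The slow troponins had equally low shares. Tnnt1 made up 0.325%, 0.187% and 0.207% of Tnnt1 and Tnnt3 in ICB muscle and 0.541%, 0.248% and 0.413% in IgG muscle (exact permutation p = 0.2, adjusted p = 0.733). Tnni1 made up 0.192%, 0.137% and 0.166% of Tnni1 and Tnni2 in ICB muscle and 0.393%, 0.122% and 0.295% in IgG muscle (exact permutation p = 0.4, adjusted p = 0.88). Atp2a2 made up 0.4%, 0.373% and 0.404% of both SERCA genes in ICB muscle and 0.472%, 0.283% and 0.471% in IgG muscle (exact permutation p = 1). The cardiac actin Actc1 made up 0.615%, 0.436% and 0.27% of both actins in ICB muscle and 0.142%, 0.655% and 0.355% in IgG muscle (exact permutation p = 0.8, adjusted p = 1), with the lowest and the highest share both in IgG muscle.

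All 13 fast genes tested differed by less than 0.3 log2 between ICB and IgG muscle, from -0.28 (Myh4) to 0.13. Acta1 had 32462, 34926 and 24047 FPKM in ICB muscle and 26739.5, 31856 and 32060.2 FPKM in IgG muscle (-0.00 ± 0.25). Actn3 was the second gene whose groups did not overlap, with 5515, 5377 and 4232 FPKM in ICB muscle and 6764, 5551 and 5533 FPKM in IgG muscle (-0.24 ± 0.21, adjusted p = 0.881). Together with Tnnt1 it made 2 of the 30, where 5.62% of all genes tested were lower without overlap. The summed level of 6 fat markers ran from 522 to 998 FPKM in ICB muscle and from 865 to 2069 FPKM in IgG muscle, 6 of 6 were detected in both, and Adipoq was highest in IgG replicate 3 (207 FPKM, others 41.9 to 71.2). The 5 macrophage markers summed to 113 to 324 FPKM in ICB muscle and 67.5 to 171 FPKM in IgG muscle, among them Adgre1 at 4.01, 10.2 and 12.7 FPKM in ICB muscle and 2.55, 4.02 and 2.65 FPKM in IgG muscle. The 5 red blood cell markers summed to 284 to 877 FPKM in ICB muscle and 978 to 1517 FPKM in IgG muscle. All markers of both lists were detected in both groups. The part of fat, macrophages and blood in these values was not tested.

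Of the wider list, 68 genes were tested in muscle and 0 passed, with 36 higher, 32 lower and a median of 0.01 log2. The smallest p belonged to Ankrd2, a stretch-responsive gene of slow fibers, with 356, 445 and 300.5 FPKM in ICB muscle and 1322, 977 and 612 FPKM in IgG muscle (-1.35 ± 0.30, unadjusted p = 0.00243, adjusted p = 0.876). Each ICB library was below each IgG library. Mylk4, a myosin light chain kinase family gene, had 262, 194 and 278 FPKM in ICB muscle and 147, 30.2 and 119 FPKM in IgG muscle (1.56 ± 0.54), and without IgG replicate 2 the difference was 0.86. Csrp3 had 31.7, 41.2 and 36.3 FPKM in ICB muscle and 256, 42.7 and 70.0 FPKM in IgG muscle (-1.32 ± 0.57), and without IgG replicate 1 the difference was -0.58. The values of Sln, an inhibitor of SERCA (-0.48 ± 0.15), and of the slow tropomyosin gene Tpm3 (-0.47 ± 0.17) were lower, and those of the transcription factor gene Mef2c (1.04 ± 0.43) higher, each with an adjusted p = 0.876. In 1 fit of all 36 libraries, Ankrd2 (adjusted p = 0.00739), Mylk4 (0.00879) and Csrp3 (0.0408) were called.

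Whether the ICB difference itself differed between heart and muscle was tested directly, and no sarcomere gene was called. Of the 35 genes, 25 had a more positive ICB difference in heart than in muscle and 10 a more negative one (median 0.15 log2, beside -0.01 for all genes), and limma called 0 of the 35, where 0.0434% of 16123 genes passed. An unadjusted p under 0.05 was reached by 5 of the 35 and by 1118 of all genes, and limma-voom called 0. Those 5 were Tnnt1 (0.94 ± 0.29, adjusted p = 0.377), Myh7 (1.22 ± 0.53, 0.658), Tnni1 (0.56 ± 0.25, 0.678), Myoz2 (0.58 ± 0.27, 0.692) and Tnnc1 (0.77 ± 0.38, 0.721). The spread of each gene in this contrast was estimated over all 36 libraries, so the SEs and p-values are not those of heart and muscle alone. Tnni1 was at most 0.343 FPKM in tumor and lower in kidney, lung and liver, and these libraries enter its SE. Without muscle IgG replicate 2, which had the lowest Tnni1 of its group, Tnni1 passed in this fit (0.96, adjusted p = 0.00194). In limma-voom its sign turned (-1.09), with Tnni1 at 0 to 0.173 FPKM in heart.

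Outside heart and muscle, most of these genes were close to 0, and the exceptions differed between tissues. The filter kept 10 of the 35 genes in tumor, 8 in kidney, 17 in lung and 5 in liver, the rest being below 1 FPKM in at least 4 of the 6 libraries. Genes used outside striated muscle were present in all 4 tissues. Atp2a2, also the general SERCA of other cells, had 78.6, 89.4 and 76.7 FPKM in ICB tumors and 80.1, 71.6 and 63.8 FPKM in IgG tumors. It had 81.7, 79.6 and 75.4 FPKM in ICB kidneys and 74.5, 58.9 and 77.1 FPKM in IgG kidneys. In lung it had 38.0, 35.8 and 42.4 FPKM with ICB and 29.6, 30.7 and 48.5 FPKM with IgG, and it spread most in liver, from 41.3 to 113 FPKM. Tpm1 had 24.9, 41.0 and 18.4 FPKM in ICB tumors and 20.5, 25.9 and 26.1 FPKM in IgG tumors, and Tpm2 had 19.2, 27.7 and 14.98 FPKM in ICB tumors and 15.8, 17.6 and 16.5 FPKM in IgG tumors. Both tropomyosin genes were highest in tumor ICB replicate 2. In kidney, Tpm1 had 10.99, 9.09 and 11.4 FPKM with ICB and 9.87, 11.3 and 9.43 FPKM with IgG, and Tpm2 6.43, 4.20 and 6.22 FPKM with ICB and 3.25, 5.32 and 4.65 FPKM with IgG. In lung, Tpm1 had 20.4, 25.9 and 28.0 FPKM with ICB and 31.1, 25.2 and 30.1 FPKM with IgG, and Tpm2 8.19, 13.1 and 15.3 FPKM with ICB and 14.4, 10.5 and 12.8 FPKM with IgG. In liver, Tpm1 had 9.41, 6.76 and 10.1 FPKM with ICB and 9.20, 9.95 and 6.96 FPKM with IgG, and Tpm2 ran from 0.816 to 1.87 FPKM. The groups overlapped in each tissue for both tropomyosin genes. Neb stood at 0.456 to 1.27 FPKM in liver, where Acta1 was at most 0.145 FPKM and Myh1 and Myh2 were listed at 0 in all 6 libraries.

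In tumor, 1 library carried the fast set. Acta1 had 8.30, 180.3 and 1.21 FPKM in ICB tumors and 4.12, 1.35 and 1.40 FPKM in IgG tumors. All 13 fast genes were highest in ICB replicate 2, except Myh2, which was highest in ICB replicate 1. In replicate 2, Myh4 stood at 35.7 FPKM (others 0.267 to 0.561), Tnnt3 at 43.4 FPKM (others 0.756 to 2.32), Mylpf at 34.9 FPKM (others 0.919 to 3.18), Atp2a1 at 31.6 FPKM (others 0.313 to 0.77) and Tnni2 at 23.9 FPKM (others 0.543 to 1.32). Actn3 (22.4 FPKM), Ckm (23.0), Myl1 (18.8), Mybpc2 (11.2) and Myoz1 (5.36) were above 5 FPKM in that library and at most 2.27 FPKM in the other 5. The skeletal marker Pvalb, a calcium buffer of fast fibers, stood at 17.9 FPKM (others 0.145 to 0.896), and the summed level of 7 skeletal muscle markers, all detected, was 25.9 FPKM there, with 0.868 and 1.43 FPKM in the other ICB tumors and 1.16 to 1.42 FPKM in IgG tumors. The part of attached muscle in these values was not tested.

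Summed over the 13 genes, replicate 2 held 0.433% of the mean muscle level (1.09% on the TPM scale, with every library brought to the same total), and single genes 0.143% (Myh2) to 0.7% (Mybpc2). The other 5 tumors held 0.00634% to 0.0229%. The ICB minus IgG differences of the 5 fast genes tested in tumor were all positive (0.95 to 2.34 log2), and without replicate 2 that of Acta1 was 0.56 (adjusted p = 0.996), against 2.34 ± 1.45 with all 6 libraries (adjusted p = 0.786). limma called 0 of the 10 genes tested and 0.0% of 11398 genes in tumor, with 1 of the 10 and 783 of all genes at an unadjusted p under 0.05, and limma-voom called 0. Fat markers summed to 51.0 and 55.3 FPKM in 2 of the ICB tumors and 3.51 FPKM in the other, and to 2.11 to 8.15 FPKM in IgG tumors, where Ucp1 was at 0. At least 1 of the 2 ICB tumors with the higher sums was thus a tumor without the fast set. The part of fat tissue in these values was not tested.

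**Figure D3:**
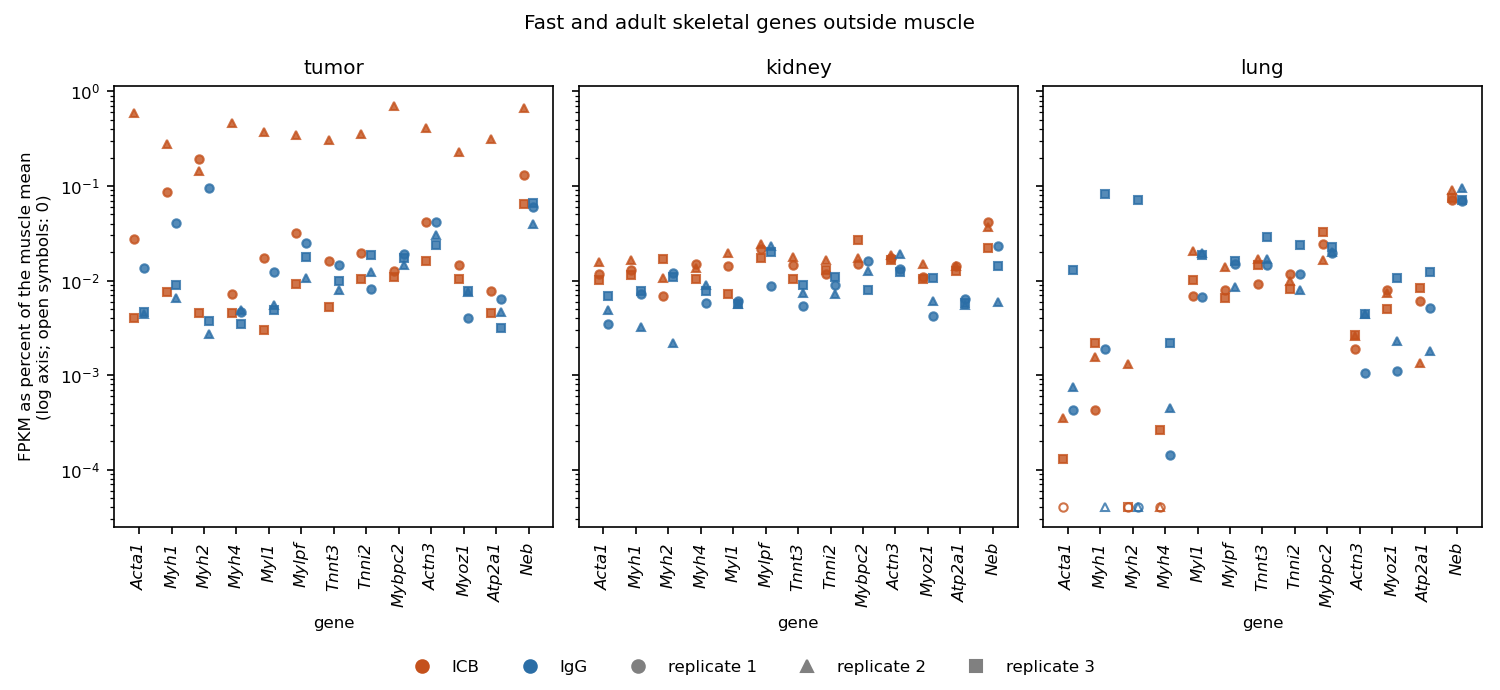
Each point is the level of 1 fast or adult skeletal gene in 1 library of tumor, kidney or lung, as a percent of its mean over the 6 muscle libraries, on a log axis, with ICB left of IgG; open symbols are values of 0. Tumor ICB replicate 2 lies between 0.143% and 0.7% for the 13 genes, tumor ICB replicate 1 and IgG replicate 1 rise at Myh1 and Myh2, and lung IgG replicate 3 rises at Myh1 and Myh2 without Myh4.

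The shares of the fast heavy chain genes differed between these traces, while fiber types themselves were not observed. Reads of Myh1, Myh2 and Myh4 were counted in each library, and 95% exact binomial intervals are given, which cover counting error only. In muscle, Myh4 took 78.6% to 88.3% of these reads, Myh1 8.86% to 14.9% and Myh2 2.2% to 6.46%. In tumor ICB replicate 2, Myh4 took 90.5% of 8791 reads (89.9% to 91.1%), slightly above the range in muscle. In tumor ICB replicate 1 it took 25.2% of 460 reads (21.3% to 29.4%), with 44.8% Myh1 and 30.0% Myh2, and in tumor IgG replicate 1 31.2% of 234 reads (25.3% to 37.6%), with 40.2% Myh1 and 28.6% Myh2. Those 2 tumors thus held reads of the IIX and IIA heavy chain genes in proportions seen in none of the 6 muscle libraries. In the other 3 tumors, with 88 to 98 reads each, Myh4 took 69.7% to 81.6%. Their Myh1 shares were 19.3% (11.7% to 29.1%) in ICB replicate 3, 16.3% (9.63% to 25.2%) in IgG replicate 2 and 27.0% (18.1% to 37.4%) in IgG replicate 3. All 3 lay above the 6 muscle libraries, and the interval reached into the muscle range for ICB replicate 3 and IgG replicate 2.

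**Figure D4:**
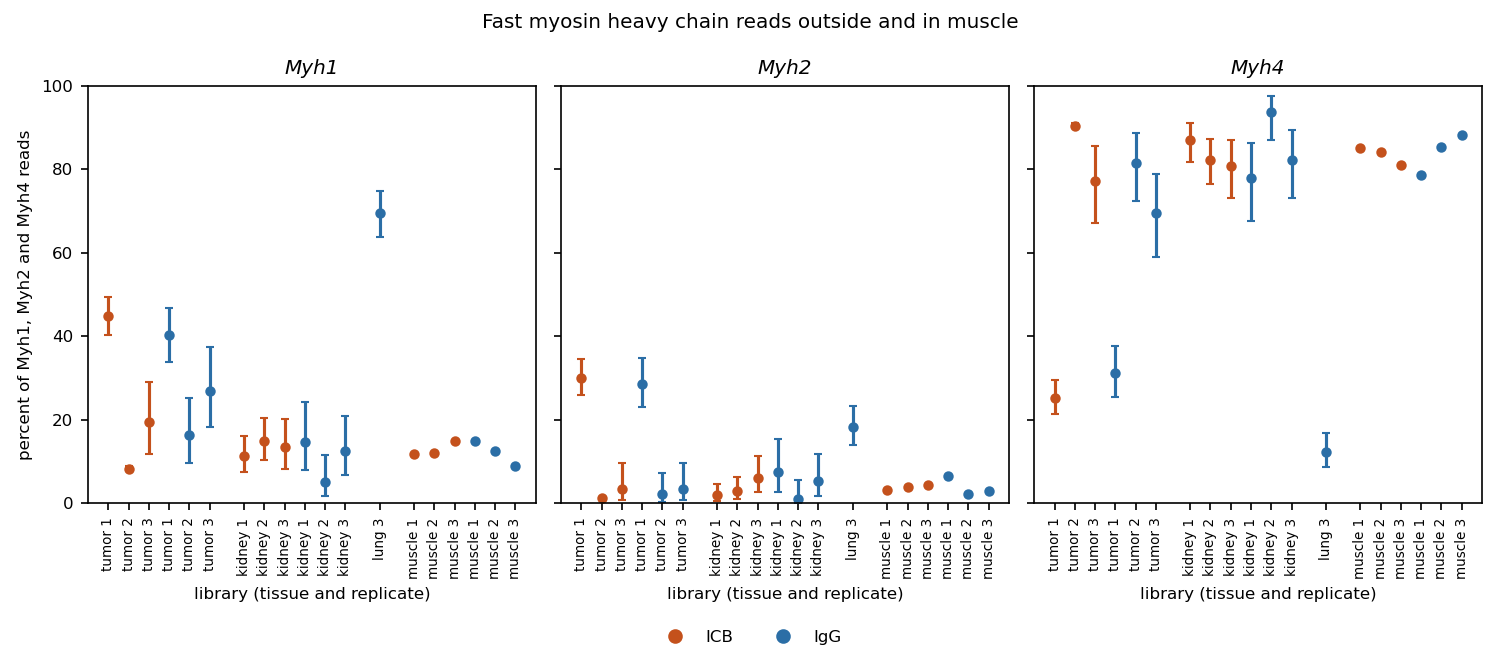
Percent of the reads of 3 fast heavy chains that belong to Myh1, Myh2 and Myh4 (1 panel each) in libraries with at least 50 such reads; points are single libraries and bars 95% exact binomial intervals. Tumor ICB replicate 1, tumor IgG replicate 1 and lung IgG replicate 3 lie above muscle for Myh1 and Myh2 and below it for Myh4, 5 of the 6 tumors lie above it for Myh1, and in kidney Myh4 takes 78.0% to 93.9%.

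Myl7, the atrial regulatory chain, was the highest of the cardiac genes in 5 of the 6 tumors. It had 3.90, 0.87 and 1.12 FPKM in ICB tumors (1.96 ± 1.68, SD, n = 3) and 6.73, 14.1 and 3.12 FPKM in IgG tumors (7.98 ± 5.58). ICB replicate 1 lay above IgG replicate 3, so the groups overlapped, and the difference of -1.54 ± 0.53 log2 had an unadjusted p = 0.0237 and an adjusted p = 0.697 (0.119 to 0.997 over the alternatives other than 1 fit of all 36 libraries, where it was called at an adjusted p = 0.0181). The library with the fast genes, ICB replicate 2, had the lowest Myl7. Tnnt2 had 0.589, 2.35 and 0.553 FPKM in ICB tumors and 1.09, 0.275 and 0.344 FPKM in IgG tumors, and was above Myl7 in ICB replicate 2. In tumor, Myh6 was at most 0.323 FPKM, Actc1 at most 0.134 FPKM, Tnni3 at most 0.54 FPKM and Mybpc3 at most 0.0374 FPKM. Nkx2-5, a heart transcription factor gene, stood at 8.17 to 14.5 FPKM in the 6 tumors, and Nppa was at most 0.0696 FPKM.

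In kidney, the summed level of the fast genes was 0.0106% of that in muscle (median of 6 libraries). Without a filter, 7 of the 13 were higher in each ICB kidney than in any IgG kidney (Acta1, Atp2a1, Tnnt3, Myh1, Myh4, Myl1 and Tnni2), and 0 were lower, where 4.68% of all 18760 genes were higher without overlap. Of all 35 genes, 9 were higher in this way, with Ttn and Ckm added, and 1 was lower (Myoz2). The genes were measured in the same libraries, so they do not count as separate evidence. Acta1 had 3.57, 4.79 and 3.07 FPKM in ICB kidneys (3.81 ± 0.882, SD, n = 3) and 1.05, 1.48 and 2.07 FPKM in IgG kidneys (1.54 ± 0.516), a difference of 0.93 ± 0.18 log2 (unadjusted p = 0.000849, adjusted p = 0.992). Atp2a1 had 1.41, 1.44 and 1.26 FPKM in ICB kidneys and 0.633, 0.55 and 0.576 FPKM in IgG kidneys (0.58 ± 0.10), and Tnnt3 2.09, 2.55 and 1.46 FPKM in ICB kidneys and 0.776, 1.06 and 1.27 FPKM in IgG kidneys (0.57 ± 0.16). Atp2a1 passed the filter only through the ICB kidneys, so its place among the genes tested depended on its ICB values. Below 1 FPKM in most kidneys, Myh4 had 1.17, 1.07 and 0.807 FPKM with ICB and 0.45, 0.697 and 0.598 FPKM with IgG, and Myl1 and Tnni2 were between 0.365 and 1.10 FPKM with ICB and between 0.285 and 0.730 FPKM with IgG. limma called 0 of the 8, where 0.0168% of 11901 genes passed, with 3 of the 8 and 441 of all genes at an unadjusted p under 0.05, and limma-voom called 0 of the 8.

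Summed over the 13 fast genes, the level was 0.0142%, 0.0171% and 0.012% of muscle in ICB kidneys and 0.00622%, 0.00874% and 0.00918% in IgG kidneys. All 6 kidneys held reads of all 13, and Myh4 took 78.0% to 93.9% of the fast heavy chain reads, beside 78.6% to 88.3% in muscle. Fat markers summed to 53.5 to 233 FPKM in ICB kidneys and 22.5 to 163 FPKM in IgG kidneys, with 6 of 6 detected in both and Adipoq at 14.6, 4.76 and 9.39 FPKM in ICB kidneys and 12.5, 3.79 and 1.25 FPKM in IgG kidneys. Of the wider list, the brown fat and muscle gene Cox8b had 22.5, 8.40 and 21.0 FPKM in ICB kidneys and 6.00, 5.06 and 2.53 FPKM in IgG kidneys (1.67 ± 0.38, adjusted p = 0.992), and Pvalb, which kidney also expresses, had lower values (-0.51 ± 0.22). The 7 skeletal markers, led by Pvalb, summed to 11.035 to 17.7 FPKM in ICB kidneys and 15.7 to 26.5 FPKM in IgG kidneys. The 5 macrophage markers summed to 50.7 to 103 FPKM in ICB kidneys and 43.2 to 45.5 FPKM in IgG kidneys, and the 5 red blood cell markers to 212 to 349 FPKM in ICB kidneys and 497 to 693 FPKM in IgG kidneys, all detected in both groups. The part of attached fat and muscle tissue, macrophages and blood in these values was not tested, nor was that of Rabep2, which overlaps Atp2a1.

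Lung held a cardiac set that differed from the heart libraries. Myl7 and Myl4, near 0 in heart, were its leading genes relative to heart, whereas the ventricular light chains Myl2 and Myl3 were nearly absent. Myl7 had 29.4, 63.8 and 57.1 FPKM in ICB lungs and 73.0, 77.2 and 57.0 FPKM in IgG lungs, against at most 0.930 FPKM in heart, a log2 difference of 5.59 ± 0.23 between the 6 lung and the 6 heart libraries (adjusted p = 8.43e-19). Myl4 had 3.24, 8.56 and 6.21 FPKM in ICB lungs and 8.86, 10.2 and 7.69 FPKM in IgG lungs, against 0.232 to 0.544 FPKM in heart (2.59 ± 0.13, adjusted p = 2.6e-17). Each lung library was above each heart library in both genes.

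This contrast of lung and heart was chosen after the data were seen. Of the 35 genes, 4 were higher in lung (Myl7, Myl4, Tpm2 and Tnnt3) and 21 lower, where 39.9% of all 16123 genes tested were higher and 30.4% lower. These counts depend on how tissues are scaled: with the values of every library brought to the same total (TPM scale), the median of all genes was 0.88 log2 in place of 0.08, and this scale gave 12224 higher and 1990 lower genes in place of 6439 and 4899, with 24 of the 35 called in place of 25.

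The other cardiac genes stood in lung at a small part of their heart level, and the part differed between genes. The summed level of the 7 cardiac genes, Myl7 included, was 0.977% of heart (median of 6 lungs), and 2.08% on the TPM scale, so the percents below depend on the scaling. Actc1 had 22.3, 36.8 and 35.9 FPKM in ICB lungs and 32.4, 20.3 and 44.97 FPKM in IgG lungs, a median of 0.637% of its heart mean. Myh6 had 17.8, 18.4 and 29.4 FPKM in ICB lungs and 17.1, 17.4 and 29.7 FPKM in IgG lungs (median 0.313% of heart). Tnnt2 had 4.55, 6.89 and 6.48 FPKM in ICB lungs and 6.28, 8.50 and 7.28 FPKM in IgG lungs (0.699%), and Tnnc1 4.12, 9.85 and 5.88 FPKM in ICB lungs and 7.21, 10.3 and 6.25 FPKM in IgG lungs (0.391%). Tnni3 ran from 5.52 to 13.9 FPKM (0.555%) and Myoz2 from 1.13 to 2.49 FPKM (0.493%). Mybpc3 (0.123%) and Pln (0.132%) were lower by this measure, and Myl3 (0.591 to 1.35 FPKM, 0.0264%) and Myl2 (0.086 to 0.734 FPKM, 0.0132%) lower still, while Myh7, at 1.27 to 3.86 FPKM, stood at 3.81%.

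The markers of atrial heart muscle stood beside these values. Of 5 such genes, 4 were detected in lung, and their summed level ran from 14.0 to 25.6 FPKM in ICB lungs and 22.9 to 27.5 FPKM in IgG lungs. Sln had 2.77, 8.51 and 3.51 FPKM in ICB lungs and 7.84, 8.84 and 6.61 FPKM in IgG lungs, Mybphl 2.15, 3.09 and 2.87 FPKM in ICB lungs and 4.18, 4.38 and 3.71 FPKM in IgG lungs, and Nppa 1.05 to 7.26 FPKM over the 6. Tbx5, also a gene of lung mesenchyme, stood at 6.22 to 9.72 FPKM, and Bmp10 was listed at 0 in all 6. Of 8 markers of working heart muscle, 8 were detected in lung, at most 2.61 FPKM each, and their sum ran from 4.11 to 5.49 FPKM in ICB lungs and 3.72 to 6.47 FPKM in IgG lungs, against 1588 to 1967 FPKM in heart. In the mouse, the walls of the pulmonary veins are known to contain heart muscle cells. Whether such cells were in these lung samples was not tested.

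**Figure D5:**
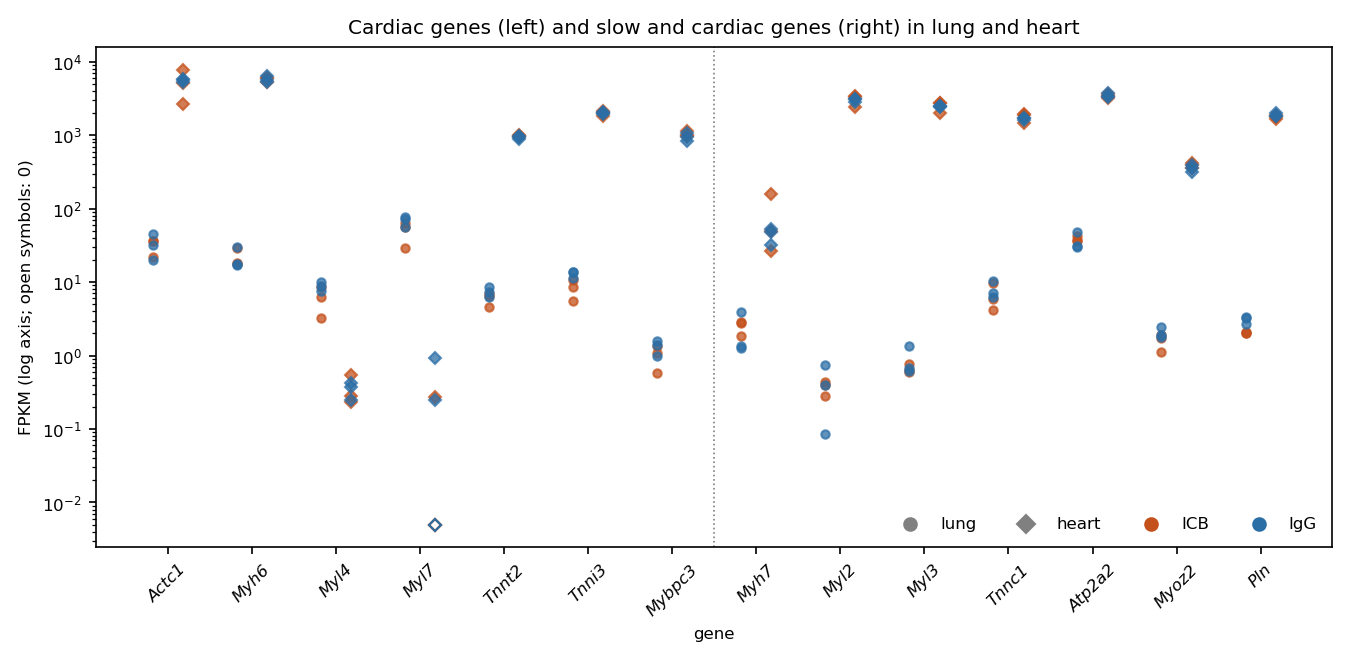
FPKM on a log axis of 7 cardiac genes (left of the dotted line) and 7 genes shared by heart and slow fibers (right) in each lung (circles) and heart (diamonds) library; open symbols are values of 0. Lung lies above heart for Myl7 (29.4 to 77.2 FPKM against at most 0.930 FPKM) and Myl4 and below it for the other 12 genes.

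Between ICB and IgG lungs, limma called 0 of the 17 genes tested and 0.0% of 12747 genes, with 2 of the 17 and 555 of all genes at an unadjusted p under 0.05, and limma-voom called 0. Of the 17, 3 were higher and 14 lower with ICB (median -0.24 log2, beside -0.01 for all genes). On the TPM scale the median of all genes was 0.16 in place of -0.01. Pln had 2.11, 2.02 and 2.003 FPKM in ICB lungs and 3.37, 2.72 and 3.24 FPKM in IgG lungs (-0.43 ± 0.11, unadjusted p = 0.00638, adjusted p = 0.988), and Tnni3 5.52, 10.6 and 8.61 FPKM in ICB lungs and 13.86, 13.87 and 11.5 FPKM in IgG lungs (-0.64 ± 0.22, unadjusted p = 0.0205, adjusted p = 0.988), and on the TPM scale the differences were -0.28 for Pln and -0.44 for Tnni3. The groups did not overlap in these 2 genes, where 4.14% of all genes tested were lower without overlap. ICB replicate 1 was the lowest lung for Myl4, Myl7, Tnnt2, Tnni3, Mybpc3, Tnnc1 and Myoz2, and without it the difference of Tnni3 was -0.41. Markers of other cells differed between the same groups: 5 lung epithelium markers summed to 19909.5 to 30929 FPKM in ICB lungs and 33730.5 to 54688 FPKM in IgG lungs, and 5 macrophage markers to 140 to 156 FPKM in ICB lungs and 83.6 to 98.2 FPKM in IgG lungs. Their part in the cardiac values was not tested, nor was that of Dnaaf3 and Cep85l, which overlap Tnni3 and Pln. Of the wider list, 36 genes were tested and 0 passed. Those with the smallest p included Cox6a2, a heart and muscle subunit of cytochrome oxidase (-0.74 ± 0.19), and Mybphl (-0.46), which was called in 1 fit of all 36 libraries (adjusted p = 0.00194).

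Fast genes were nearly absent from lung apart from 1 library. Acta1 had 0, 0.108 and 0.0397 FPKM in ICB lungs and 0.131, 0.227 and 3.89 FPKM in IgG lungs, and Myh1 at most 0.024 FPKM in 5 lungs and 0.905 FPKM in IgG replicate 3. In that library Myh1 took 69.5% of 285 fast heavy chain reads (63.8% to 74.8%, 95% exact binomial interval), Myh2 18.2% and Myh4 12.3% (8.71% to 16.7%). This order, with IIX above IIA above IIB, was also that of tumor ICB replicate 1, and was found in none of the 6 muscle or 6 kidney libraries. Tnnt3 was detected in every lung at 1.32 to 4.09 FPKM, also in those with Acta1 near 0.

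In liver, 5 of the 35 genes passed the filter, namely Atp2a2, Tpm1, Tpm2, Mylpf and Tnnc1, and limma called 0 of them and 0.0% of 11257 genes, with 0 of the 5 and 379 of all genes at an unadjusted p under 0.05, and limma-voom called 0. Atp2a2 had 45.3, 57.9 and 41.3 FPKM in ICB livers and 113, 48.0 and 72.7 FPKM in IgG livers (-0.61 ± 0.31, adjusted p = 0.999), with overlap and 1 high library, IgG replicate 1. Traces of heart genes were found, with Myh6 at 0 to 0.986 FPKM and Actc1 at 0.101 to 0.897 FPKM.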

How the data were processed

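RNA from flash-frozen tissue was sequenced after Illumina TruSeq preparation, per the labels' protocols. The authors deposited FPKM values for 18781 rows named by gene symbol. The submitters' processing notes name HISAT2 2.1.0, edgeR and the build mm10. How reads were counted, on which annotation and strand, and how libraries were scaled is not stated there. FPKM divided by the value of 1 read gave whole reads in all 18781 rows (within 0.001 reads), used for limma-voom, shares of reads and intervals. The 15 unnamed rows and the 6 rows sharing 3 symbols were left out.

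Within a tissue, log2(FPKM + 1) was fitted with limma 3.58.1 (trend, two-sided, R 4.3.3). Genes needed 1 FPKM or more in 3 or more libraries. Comparisons between tissues used all 36 libraries as 12 group means. Benjamini-Hochberg adjustment covered all genes tested, with a threshold of 0.05. The fit was also run on simulated reads that gave every gene the same dispersion (spread beyond counting error). The real genes differ in spread, so that run does not show which changes could be detected here. The genes, classes and lists were chosen with earlier results of these data known. All genes of the list are accounted for, with values by library for the genes of the shares and for genes above 5 FPKM outside heart and muscle, and by range for the comparison of heart with muscle and for tumors other than ICB replicate 2. Of the wider list, at most 6 genes per comparison with the smallest p are named. Markers and antisense genes were named after their values were seen. Results were recomputed without the filter, with a pseudocount of 0.1, on the TPM scale, after median of ratios scaling, without the trend, and with limma-voom, 1 fit of all 36 libraries, the replicate block and leaving out each library. Python 3.11.15, numpy 2.4.6, pandas 2.3.3, scipy 1.17.1 and matplotlib 3.10.9 were used.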

Additional observations from a re-analysis of the deposited data

How the results depend on the processing

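No sarcomere gene was called between ICB and IgG in heart, kidney, lung or liver under any alternative. In 1 fit of all 36 libraries the count was 1 in muscle (Tnnt1) and 1 in tumor (Myl7), and all-gene calls there were 3 in heart, 91 in muscle, 69 in tumor, 12 in kidney, 55 in lung and 74 in liver, in place of 0, 0, 0, 2, 0 and 0. For the ICB effect in heart minus that in muscle, 0 to 1 of the 35 were called when 1 library was left out (Tnni1, without muscle IgG replicate 2), and the 7 calls over all genes became 0 with limma-voom or a pseudocount of 0.1, 1 on the TPM scale, and 3 to 173 when 1 library was left out (173 without muscle IgG replicate 3, 37 without muscle IgG replicate 1). Without 1 library, all-gene calls reached 9 in kidney (without ICB replicate 2), 6 in tumor (IgG replicate 3) and 39 in liver (ICB replicate 2). Tnni1 turned to -1.09 with limma-voom. Heart minus muscle gave 33 or 34 calls, and lung minus heart 24 or 25. When 1 heart library was left out, the heart difference ran from -0.24 to 1.01 for Myh7 and from -0.60 to 0.18 for Actc1, and both turned without ICB replicate 3. Leaving out 1 library, the ICB minus IgG difference in a share, in percentage points, ran from -0.104 to 0.927 for Myh7 in heart (-0.0134 with group medians) and, in muscle, from -3.20 to 1.36 for Myh4, from -0.780 to 2.17 for Myh1 (-0.398 with group medians), from -0.0792 to 0.0154 for Atp2a2 and from -0.0647 to 0.192 for Actc1. Shares from recovered reads had the same direction for all 11. The fast gene level in tumor ICB replicate 2, 0.433% of muscle, was 0.358% as the median of the genes, 0.358% without Acta1, 1.09% on the TPM scale and 0.414% to 0.447% when 1 muscle library was left out. The kidney level (0.0106%) was 0.0157% on the TPM scale, and the cardiac level in lung (0.977% of heart) was 0.678% as the median of the genes and 2.08% on the TPM scale. The cause of these shifts was not tested. Of 1234 single-gene values under an alternative, 3 turned, 3 lost and 8 gained a call. Title numbers are shared between heart and muscle libraries. Deviations of same-numbered libraries correlated at -0.06 to 0.22 in 4 pairs, and 4 of 8 libraries correlated best with their own number. Each matching pair is counted in these 4 from both sides, once as heart and once as muscle. The other pairs matched best from neither side. The share expected by chance was not computed, so these counts do not show whether a title number marks a shared mouse. With the number as a replicate block, heart minus muscle gave 34 calls, lung minus heart 25 and the contrast of ICB effects 0. No paired analysis was possible because ICB and IgG libraries of a tissue share no title number. Depth limits levels near 0: 5 lung libraries with 1 to 9 fast heavy chain reads give no usable share.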
